A study of Mus musculus with 6 samples.

Results

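Glucuronosyltransferases, sulfotransferases, carboxylesterases and epoxide hydrolases are the enzymes with which epithelia conjugate or hydrolyse drugs, steroids, bile pigments and food-borne chemicals. Their transcripts were followed in the villi of newborn mice with an intestinal deletion of *Trpm7*, which encodes a divalent cation channel fused to a kinase. The set was taken by gene symbol: every gene whose symbol begins with Ugt and a digit from 1 to 3, or with Sult, Ces or Ephx and a digit, and that had a probe set annotated to it alone. This gave 46 genes of 19938 on the array, namely 10 Ugt, 16 Sult, 16 Ces and 4 Ephx genes. Where a gene had several, the one with the largest average signal across the 6 arrays was read. In the RefSeq gene table the same families hold 67 genes, and 21 of these had no unshared probe set in the platform annotation used. Among them were the whole Ugt1a group, and *Ces2c* and *Ces2d-ps*, for which the closing section gives probe sets named by the study. The families were therefore not covered in full. The 6 probe sets that several family members share are given apart.

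Villi were mechanically detached from the intestine of littermates at 5 days of age (P5), in 3 control replicates with the genotype *Trpm7* fl/fl and 3 mutant replicates with the genotype *Trpm7* fl/fl;*Villin1*-Cre. Both groups carry the floxed alleles, so by genotype they differ by the Cre transgene and the recombination it causes. The study also reports that mutant pups at P5 were growth retarded, with lowered serum zinc, magnesium and calcium. The part of this whole-body state in the results below was not tested. The Villin1 promoter drives Cre in the intestinal epithelium, so cells of the connective tissue, vessels and immune system in the same villi keep the gene. The labels give the background as C57BL/6, the methods of the study give the Cre line as C57BL/6J and the floxed line as another strain, and the sex is labelled unknown. Total RNA was labelled with biotin by a whole-transcript protocol and each sample was hybridised to 1 Affymetrix array. All values are deposited log2 signals, and a change is the mutant mean minus the control mean on that scale. A change was called when the adjusted p of limma's moderated test, two-sided and adjusted over all 30177 probe sets, was 0.05 or less. With 3 arrays a group the p-values measure the spread between these samples only, and an exact permutation test of a single gene could not go below 0.1.

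UDP-glucuronosyltransferases sit in the membrane of the endoplasmic reticulum and move glucuronic acid from UDP-glucuronate onto lipophilic acceptors. Cytosolic sulfotransferases move a sulfo group from the donor PAPS. Carboxylesterases cleave esters, including lipid esters and ester prodrugs, and epoxide hydrolases add water to epoxides. In the intestine these reactions form part of first-pass metabolism, and the charged products leave the enterocyte through ATP-driven exporters.

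Before the families, the samples themselves need description. *Trpm7* read 9.11, 8.96 and 9.03 on the control arrays and 8.03, 7.79 and 7.88 on the mutant arrays, a decrease of 1.13 ± 0.088 (SE, n = 3 per group, limma adjusted p = 0.00019). The position of its probe set relative to the deleted part was not given. All 8 enterocyte markers had mean signals above the array medians. The summed linear signal of the list ran from 77412 to 78797 in control and from 73104 to 74568 in mutant villi. The marker *Apoa4* equalled the highest signal of each array (14.53 on every control array), and saturation at this level was not tested. Of these 8, *Lct*, the lactase gene, fell by 0.94 (adjusted p = 0.0036), while *Cdh1* and *Epcam* rose by 0.34 (adjusted p = 0.0144) and 0.27 (adjusted p = 0.0391), and the number of higher markers ranged from 0 to 1 when single arrays were left out. Markers of goblet cells, the mucus-secreting cells, fell in 4 of 5 cases, with a summed signal of 20641 to 22946 in control and 2627 to 3512 in mutant villi. In such bulk samples fewer cells of a type and less RNA per cell cannot be told apart, and the part of the goblet cell decrease in the results below was not tested. Markers of other cell types were called as well, and their part was not tested either. Over all genes, 9.39% were higher and 10.1% lower. Paneth cell markers were called in both directions, 2 higher and 2 lower of 5, from *Mmp7* at 1.07 to *Defa24* at -3.04. Enteroendocrine markers were also called both ways, 2 higher and 2 lower of 6, from *Gcg* at 1.19 to *Gip* at -1.17. Higher were 3 of 5 stem cell markers, 1 of 5 tuft cell markers, 2 of 6 leukocyte markers (the neutrophil genes *S100a8* and *S100a9*, by 3.31 and 3.46) and 2 of 7 mesenchymal markers (*Dcn* by 1.03 and *Pdgfra* by 0.56), with none lower in these lists. Of 4 endothelial markers 0 were called by limma and 0 had an unadjusted p below 0.05, and of 3 pancreatic markers 1 was lower. When single arrays were left out, the higher counts were as low as 0 for enteroendocrine and tuft cells, 1 for Paneth cells and mesenchyme and 2 for stem cells, the pancreatic count was as low as 0 and the leukocyte count was 2 each time. Control replicates 2 and 3 held both *Xist*, a transcript of females, at 9.82 and 9.66 and Y-linked *Eif2s3y* at 7.71 and 7.84, whereas the other 4 arrays held only 1 of these transcripts at a high level. The study describes the samples as littermates, and the source of this mixed signal was not tested. Control replicates 2 and 3 also read alike, and apart from replicate 1, for the pancreatic marker *Ctrb1* (8.71, 10.59 and 10.64 on the control arrays). Whether they are independent samples was not given, while n = 3 per group takes them as such. Counts with these arrays averaged are therefore given as well. Mutant replicate 3 held hepatocyte transcripts: *Alb* read 5.69, 6.99 and 7.07 in control and 5.55, 8.57 and 12.13 in mutant villi, and the summed linear signal of 6 hepatocyte markers ran from 266 to 355 in control and from 230 to 9109 in mutant villi. Hepatocytes express many genes of the 4 enzyme families, so values that rest on this array are given with and without it.

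**Figure D1:**
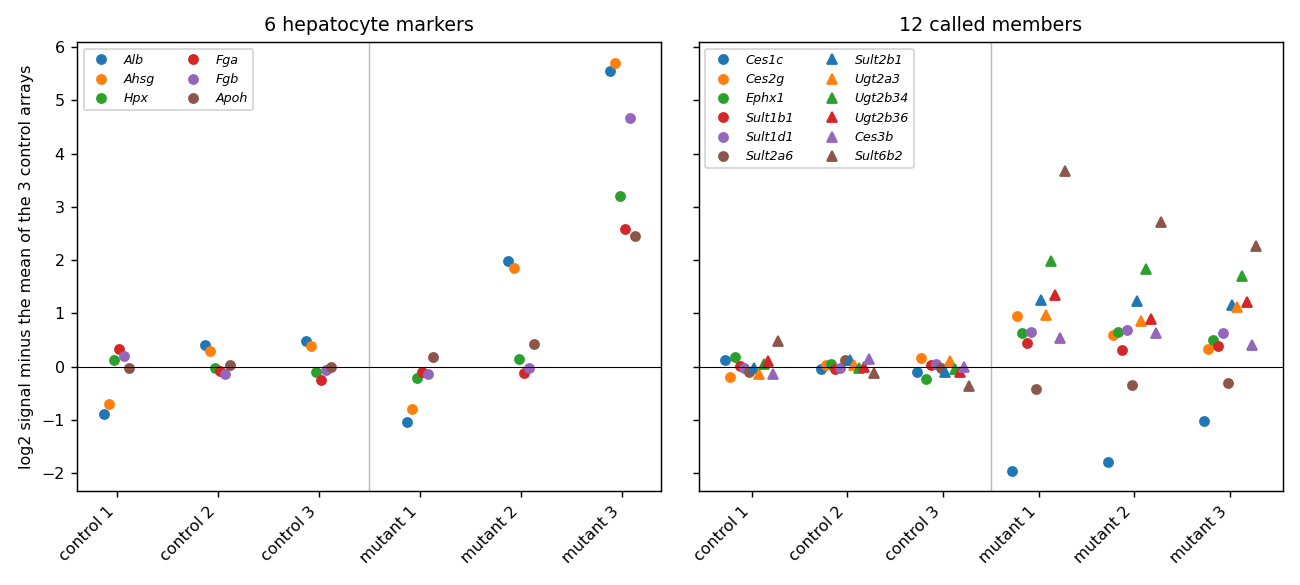
Left, 6 hepatocyte markers, and right, the 12 called members of the enzyme families, each as log2 signal minus its control mean (y axis) on each of the 6 arrays (x axis). The hepatocyte markers stand highest on mutant replicate 3, where 7 of the 10 risen members had their lowest mutant value.

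Of the 46 genes, 10 were higher and 2 lower in mutant villi, and 34 were not called. The higher share was 21.7%, against 9.39% of all 19938 genes, and the lower share was 4.35%, against 10.1%. At least 2-fold higher were 4 genes or 8.7%, against 1.7% of all genes, and at least 2-fold lower was 1 gene or 2.17%, against 1.38%. The median change of the 46 genes was 0.015, against 0.005 for all genes, with quartiles of -0.127 and 0.355 against -0.133 and 0.137. The middle of the set lay near that of all genes, while its upper quartile lay higher. Without mutant replicate 3 the counts were 12 higher and 2 lower. With control replicates 2 and 3 averaged into 1 array they were 9 and 1, and with control replicate 1 as the sole control array they were 6 and 0.

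The arrays of the 2 groups did not overlap for 18 of the 46 genes, or 39.1%, which is near the 37.5% of all genes. Of these 18, 6 were not called. Signal was low for much of the set, since 33 genes had both group means below the array medians of 6.24 to 6.3. Of the 12 called genes, 5 lay in this low range, namely *Ugt2b36*, *Sult2a6*, *Ces2g*, *Ces3b* and *Ephx1*, and whether signals this low lie above background was not tested. Mutant replicate 3 held the highest of all 6 signals for 2 of the 46 genes, or 4.35%, against 12.7% of all genes.

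**Figure D2:**
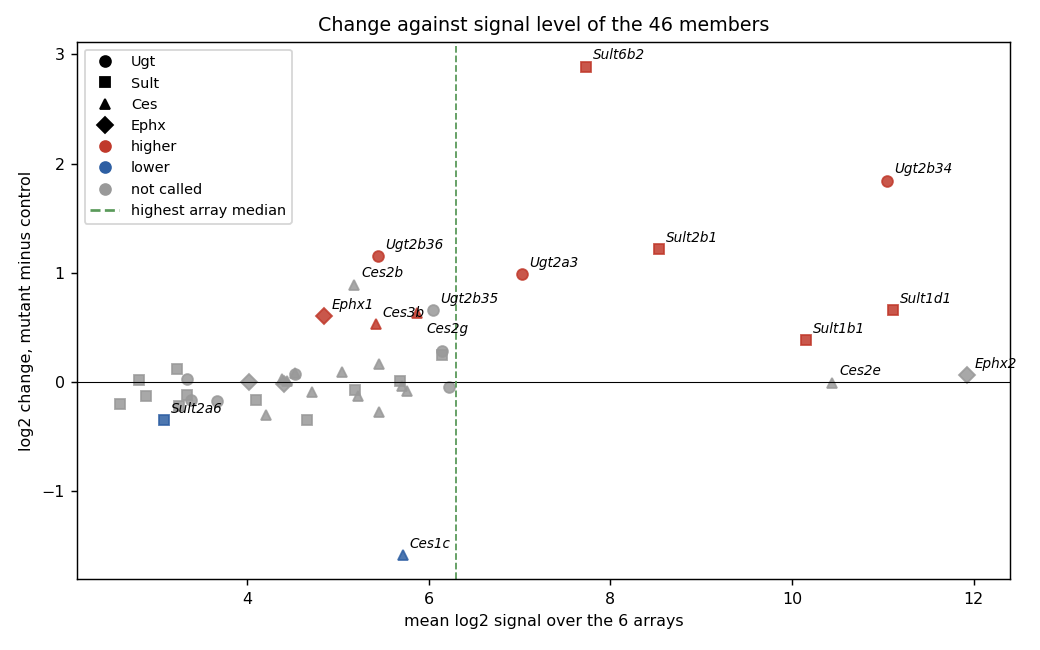
Change between mutant and control villi (y axis, log2) against the mean signal over the 6 arrays (x axis, log2) for the 46 genes, with the called genes and 4 others named. Most genes sit near 0, and *Sult6b2*, *Ugt2b34*, *Sult2b1* and *Ugt2b36* stand at least 2-fold up while *Ces1c* stands down.

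Among the glucuronosyltransferases, 3 of 10 genes (30%) were higher and none lower by limma, against 9.39% and 10.1% of all genes. Of the 10, 4 had an unadjusted p below 0.05. All called genes belonged to the Ugt2 family, where 3 of 8 (37.5%) rose and the median change was 0.47. *Ugt2b34*, of the UGT2B group that conjugates steroids and drugs, read 10.19, 10.11 and 10.09 in control and 12.12, 11.97 and 11.83 in mutant villi. The groups lay far apart relative to their spread, with a change of 1.84 ± 0.091 (SE), or 3.59-fold (adjusted p = 3.5e-05). *Ugt2b36*, of the same group, read 4.97, 4.87 and 4.77 in control and 6.21, 5.77 and 6.08 in mutant villi, a change of 1.15 ± 0.12 (adjusted p = 0.0007). *Ugt2a3*, which in humans has a counterpart that glucuronidates bile acids, read 6.39, 6.57 and 6.64 in control and 7.51, 7.39 and 7.66 in mutant villi. Its change was 0.99 ± 0.10, or 1.98-fold (adjusted p = 0.00063), and every mutant array exceeded every control array. These 3 calls held whichever single array was left out, with changes of 1.77 to 1.92 for *Ugt2b34*, 1.06 to 1.28 for *Ugt2b36* and 0.92 to 1.05 for *Ugt2a3*.

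*Ugt2b35* lay close to the threshold without passing it. It read 5.42, 5.78 and 5.96 in control and 6.75, 6.28 and 6.10 in mutant villi, a change of 0.66 ± 0.19 (adjusted p = 0.0509). Without mutant replicate 3 the change was 0.80 (adjusted p = 0.0381). The other 4 Ugt2 genes were not called. *Ugt2b5* differed by 0.28 and overlapped between groups, *Ugt2b37* by 0.07, *Ugt2b1* by 0.03 and *Ugt2b38* by -0.05. *Ugt3a1* and *Ugt3a2*, whose human counterparts use other sugar donors than UDP-glucuronate, differed by -0.18 and -0.17 at signals far below the array medians and were not called.

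The Ugt1a genes are made from alternative first exons joined to common last exons and include the bilirubin-conjugating *Ugt1a1*. They were represented by 1 probe set that carries 8 of their symbols, so no single enzyme can be read from it. It read 8.91, 8.99 and 9.05 in control and 8.90, 9.07 and 9.20 in mutant villi. The groups overlapped, and the change was 0.07 ± 0.094 (adjusted p = 0.664), with a range of 0.00 to 0.15 over the fits without 1 array. Opposite changes of single Ugt1a transcripts cannot be seen in such a shared signal. The probe set shared by *Ugt2a1* and *Ugt2a2* differed by -0.08 and was not called.

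Ugt2 genes lie side by side on chromosome 5, and the risen genes were not all neighbours. In order along the chromosome the cluster runs *Ugt2b34*, *Ugt2b1*, *Ugt2b35*, *Ugt2b36*, *Ugt2b5*, *Ugt2b37*, *Ugt2a3* and *Ugt2b38*. Between the called genes *Ugt2b34* and *Ugt2b36* stood the uncalled *Ugt2b35* and *Ugt2b1*, the latter at a signal near the floor of the arrays, and between *Ugt2b36* and *Ugt2a3* stood *Ugt2b5* and *Ugt2b37*, neither called. *Sult1b1* and *Sult1d1*, which both rose, follow on the same chromosome among the family genes, and *Sult1e1* after them differed by 0.12 and was not called.

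**Figure D3:**
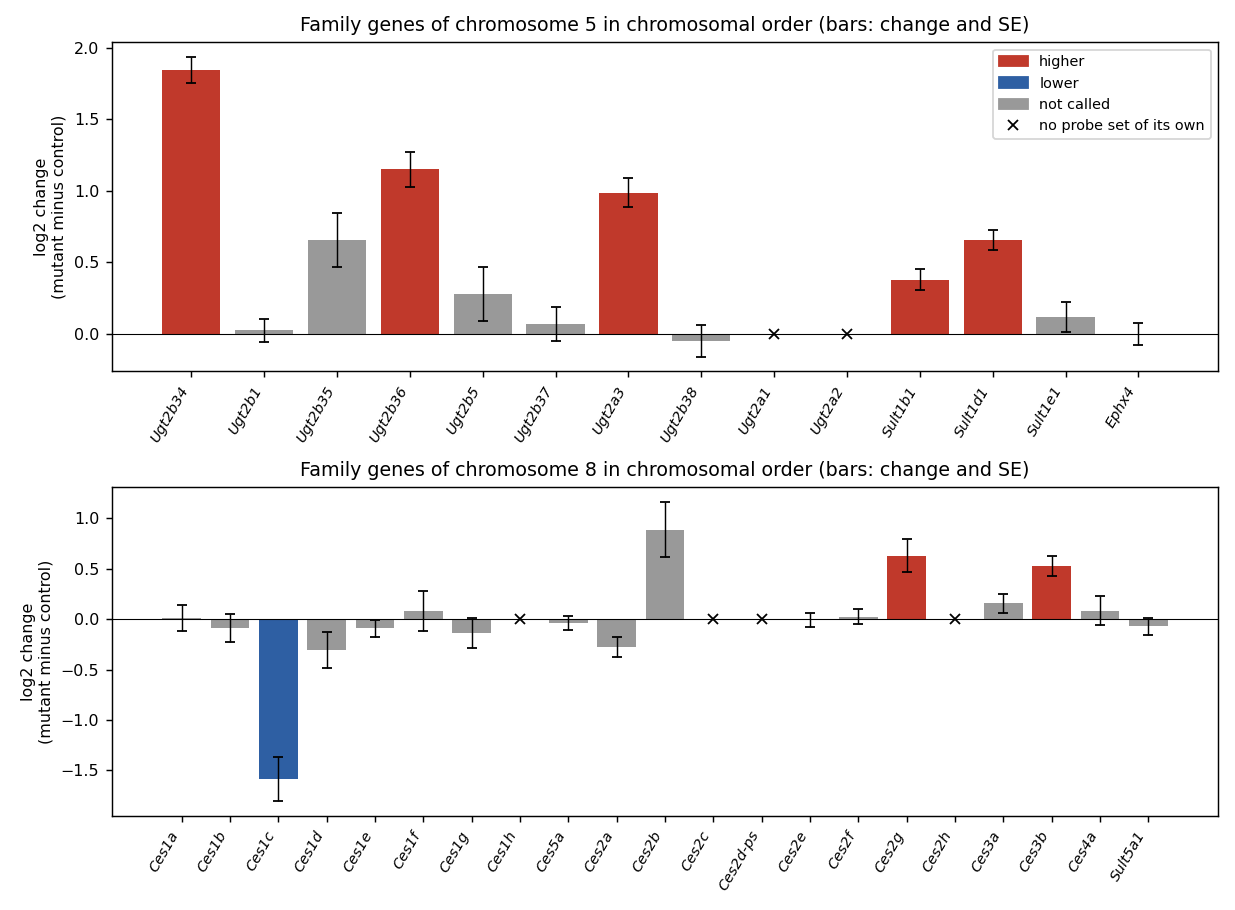
Change between mutant and control villi (y axis, log2, with 1 SE) for the family genes in their order along chromosomes 5 and 8 (x axis, order and not distance). On chromosome 5, uncalled genes stand between *Ugt2b34*, *Ugt2b36* and *Ugt2a3*, which are up, while *Sult1b1* and *Sult1d1* are adjacent and both up. On chromosome 8, *Ces1c* is down and *Ces2g* and *Ces3b* are up among uncalled genes. Crosses mark genes without an unshared probe set in the platform annotation used. *Ces2c* and *Ces2d-ps* are among these, though probe sets that the study gives these names were higher.

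Promoters of the enzyme genes were taken from RefSeq (build GRCm38.p6) and searched on both strands for short motifs of regulators of these families: TGACNNNGC, the core of the antioxidant response element bound by NRF2, TNGCGTG, an element of the aryl hydrocarbon receptor AHR, GTTAAT, a motif of the factor HNF1, and TTTATG, a site of the intestinal factor CDX2. The window ran from 250 bases before to 50 bases after the start of transcription, and 39 of the 46 genes had at least 1 promoter in the table, 44 in all. The antioxidant response element core was in 0 of the 44, against 12.4% of all 32851 promoters, and the AHR element in 1, or 2.27%, against 5.07%. The HNF1 motif was in 9, or 20.5%, against 7.1%, and the CDX2 site also in 9, or 20.5%, against 11.9%. Both of these motifs are rich in A and T, and the base composition of these promoters was not compared with that of all promoters. These 9 CDX2 matches are not all separate, since overlapping windows of *Ces1b* hold the same site, at -85 and -8. Its close relatives *Ces1c*, *Ces1e* and *Ces1g* are also among them. The HNF1 motif was in 3 of 12 promoters of higher genes, 1 of 2 of lower genes and 5 of 30 of uncalled genes. The called genes with it were *Ces3b*, *Sult1d1*, *Sult2a6* and *Ugt2a3*. *Sult2a3*, of the same gene group as *Sult2a6*, was among the uncalled genes with it. A match is a description of letters, not of binding, and a missing match says only that the letters are not in this window. Shown here are the 250 bases before the start of *Ugt2b34* (chr5:86906938-86907187, strand -), whose change was the largest of the Ugt genes, and of *Ugt2a3* (chr5:87337196-87337445, strand -), with matches in capitals. *Ugt2b34* held no match, and *Ugt2a3* held the HNF1 motif GTTAAT at positions -54 and -47 from the start.
Ugt2b34: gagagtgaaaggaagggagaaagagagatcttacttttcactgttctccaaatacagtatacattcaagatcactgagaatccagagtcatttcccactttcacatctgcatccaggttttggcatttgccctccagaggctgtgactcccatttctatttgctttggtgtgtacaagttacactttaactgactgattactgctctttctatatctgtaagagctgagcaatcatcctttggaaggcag
Ugt2a3: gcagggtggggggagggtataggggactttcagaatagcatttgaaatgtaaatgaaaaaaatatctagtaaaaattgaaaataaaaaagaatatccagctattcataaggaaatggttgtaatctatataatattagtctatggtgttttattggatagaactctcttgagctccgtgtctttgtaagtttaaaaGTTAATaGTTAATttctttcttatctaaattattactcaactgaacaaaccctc

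Glucuronidation depends on UDP-glucuronate. Of the 6 measured genes of its supply and of glucuronide hydrolysis, 2 (33.3%) were higher and none lower, with a median change of 0.13. The shares over all genes were 9.39% and 10.1%. *Ugdh*, the dehydrogenase that makes UDP-glucuronate, read 11.43, 11.32 and 11.34 in control and 13.12, 12.97 and 12.60 in mutant villi, a change of 1.53 ± 0.13 (adjusted p = 0.00027). *Slc35d1*, which carries UDP-glucuronate into the endoplasmic reticulum, read 9.11, 8.97 and 9.04 in control and 10.24, 10.15 and 9.90 in mutant villi, a change of 1.06 ± 0.10 (adjusted p = 0.00048). For both, the lowest mutant array exceeded the highest control array, and both calls held without any single array. *Ugp2*, which makes the precursor UDP-glucose, differed by -0.13 and *Gusb*, the lysosomal enzyme that cleaves glucuronides, by -0.26, and neither was called. Without mutant replicate 3, *Gusb* was lower by limma, with a change of -0.40 (adjusted p = 0.0476).

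Sulfotransferases had 4 of 16 genes higher and 1 lower, or 25% and 6.25%, against 9.39% and 10.1% of all genes. *Sult6b2*, a family member whose substrates are little known, had the largest change of all 46 genes. It read 6.77, 6.17 and 5.92 in control and 9.96, 9.0 and 8.56 in mutant villi, a change of 2.89 ± 0.35, or 7.40-fold (adjusted p = 0.0014). Replicate 1 was the highest array of both groups, the spread was wide in both, and the change ran from 2.49 to 3.19 without single arrays. It missed the threshold when control replicate 1 stood alone as control (change 2.40, adjusted p = 0.0591). *Sult2b1*, which sulfates cholesterol and other hydroxysteroids, read 7.90, 8.05 and 7.84 in control and 9.19, 9.16 and 9.08 in mutant villi, with a change of 1.21 ± 0.082 (adjusted p = 0.00011). Its mutant arrays lay within a narrow band, well clear of the controls.

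*Sult1d1* and *Sult1b1* moved by less but with very little spread. *Sult1d1*, which in mice sulfates catecholamines and other phenols, read 10.75, 10.75 and 10.84 in control and 11.43, 11.47 and 11.41 in mutant villi. The change of 0.66 ± 0.070, or 1.58-fold (adjusted p = 0.00075), was under 2-fold, and it was called in all 17 other fits and tests of this gene. *Sult1b1*, a sulfotransferase of thyroid hormones and phenols, read 9.97, 9.92 and 9.99 in control and 10.40, 10.27 and 10.35 in mutant villi, a change of 0.38 ± 0.072 (adjusted p = 0.0099). *Sult2a6*, from the group that sulfates bile acids and steroids, read 3.16, 3.38 and 3.24 in control and 2.84, 2.92 and 2.96 in mutant villi, a decrease of 0.35 ± 0.084 (adjusted p = 0.0243). Its signals lay near the bottom of the array range, and the call was lost without control replicate 2, control replicate 3, mutant replicate 1 or mutant replicate 2, with adjusted p-values of 0.0647 to 0.0839.

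No other sulfotransferase was called. *Sult1a1*, a phenol sulfotransferase, differed by 0.24 (adjusted p = 0.162), *Sult1c2* by -0.35 (adjusted p = 0.36), and *Sult1e1*, the estrogen sulfotransferase, by 0.12. *Sult2a8*, *Sult3a1* and *Sult3a2* had non-overlapping groups with changes of -0.22, -0.20 and -0.13 at signals near the bottom of the array range, and the rest lay between -0.17 and 0.02. The probe set shared by *Sult2a1* and *Sult2a2* differed by 0.25 without overlap (adjusted p = 0.0819), and the one shared by these and 2 further Sult2a genes by 0.02.

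The promoters of *Sult6b2* (chr6:142804467-142804716, strand -), the gene with the largest change, and of *Sult1d1* (chr5:87569007-87569256, strand -), the sole gene of the set with an AHR element in its window, are shown as the 250 bases before the start. *Sult6b2* held none of the 4 motifs. *Sult1d1* held the CDX2 site TTTATG at position -231, the HNF1 motif GTTAAT at -79 and the AHR element at -47 on the opposite strand, and these matches did not overlap.
Sult6b2: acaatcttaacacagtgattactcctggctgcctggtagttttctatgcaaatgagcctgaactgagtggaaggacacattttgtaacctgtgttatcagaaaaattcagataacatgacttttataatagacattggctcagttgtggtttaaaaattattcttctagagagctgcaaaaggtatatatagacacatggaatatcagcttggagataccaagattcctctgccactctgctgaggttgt
Sult1d1: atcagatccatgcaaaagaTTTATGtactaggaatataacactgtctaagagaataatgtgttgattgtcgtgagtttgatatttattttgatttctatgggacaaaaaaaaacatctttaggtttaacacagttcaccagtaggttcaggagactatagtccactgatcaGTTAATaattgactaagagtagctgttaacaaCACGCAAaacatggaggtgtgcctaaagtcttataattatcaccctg

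Of the 11 measured genes for the donor PAPS and for sulfate removal, 1 (9.09%) was higher and 3 (27.3%) were lower. The shares over all genes were 9.39% and 10.1%, and the median change of the list was -0.01. *Papss2*, a synthase of PAPS, read 11.53, 11.37 and 11.38 in control and 12.60, 12.28 and 11.88 in mutant villi, a change of 0.83 ± 0.17 (adjusted p = 0.0125), while its paralogue *Papss1* differed by -0.13 and was not called. The lower genes were the lysosomal sulfatases *Arsb* and *Arsa*, which fell by 0.85 (adjusted p = 0.00026) and 0.64 (adjusted p = 0.0146), and *Slc26a3*, an anion exchanger of the brush border, which fell by 0.64 (adjusted p = 0.0126). Each of these 4 calls held without any single array.

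Carboxylesterases had 2 of 16 genes higher and 1 lower, or 12.5% and 6.25%, against 9.39% and 10.1% of all genes. Not counted here are the probe sets that the study names *Ces2c* and *Ces2d-ps*. They rose by 2.45 (limma adjusted p = 0.0052) and 1.90 (limma adjusted p = 0.0068) and are given in the closing section. *Ces1c*, which in mice encodes a secreted esterase of blood plasma, read 6.63, 6.47 and 6.41 in control and 4.55, 4.72 and 5.49 in mutant villi. All mutant arrays lay below all control arrays, and the change was -1.58 ± 0.22, or 3.00-fold lower (adjusted p = 0.0025). Mutant replicate 3, with the hepatocyte transcripts, held the highest mutant value, and without it the change was -1.87 (adjusted p = 0.000138). The call was lost with control replicate 1 as the sole control (adjusted p = 0.0594).

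*Ces3b* read 5.01, 5.30 and 5.15 in control and 5.69, 5.79 and 5.56 in mutant villi, a change of 0.53 ± 0.10 (adjusted p = 0.0099). *Ces2g*, of the Ces2 subfamily that is typical of intestine and liver, read 5.36, 5.59 and 5.73 in control and 6.52, 6.15 and 5.90 in mutant villi, a change of 0.63 ± 0.16 (adjusted p = 0.0341). The *Ces2g* groups were separated by a small gap, and the call was lost on leaving out any single array other than mutant replicate 3 (adjusted p-values of 0.0502 to 0.0984) and with the replicate number as a block (adjusted p = 0.0681). *Ces2b* read 4.73, 4.81 and 4.67 in control and 6.23, 5.71 and 4.94 in mutant villi, a change of 0.89 ± 0.28 (adjusted p = 0.0648). The mutant arrays of *Ces2b* were spread widely, and without mutant replicate 3 the change was 1.23 (adjusted p = 0.00285). *Ces2e*, the Ces probe set with the highest signal, read 10.42, 10.44 and 10.47 in control and 10.44, 10.41 and 10.46 in mutant villi. Its change was -0.01 ± 0.067 (adjusted p = 0.963). The other Ces genes among the 16 were not called, *Ces2a* with a change of -0.28 and *Ces1d* with a change of -0.31 lying farthest below 0.

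The Ces genes of chromosome 8 are close relatives, as are the Ugt2b genes, and cross-reaction between their probe sets was not tested. *Ces1b*, the neighbour of *Ces1c* on one side, differed by -0.09, and *Ces1d*, on the other, by -0.31. The *Ces1c* promoter (chr8:93131284-93131533, strand -) is shown because it belongs to the gene with the largest decrease. It held the CDX2 site TTTATG at position -95, and the same letters lay in the windows of *Ces1b*, *Ces1e* and *Ces1g*, none of which was called.
Ces1c: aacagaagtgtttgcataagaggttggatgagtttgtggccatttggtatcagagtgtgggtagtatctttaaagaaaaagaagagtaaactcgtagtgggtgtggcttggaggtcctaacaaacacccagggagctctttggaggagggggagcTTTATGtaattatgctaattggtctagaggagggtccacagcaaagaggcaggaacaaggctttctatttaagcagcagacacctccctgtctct

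**Figure D4:**
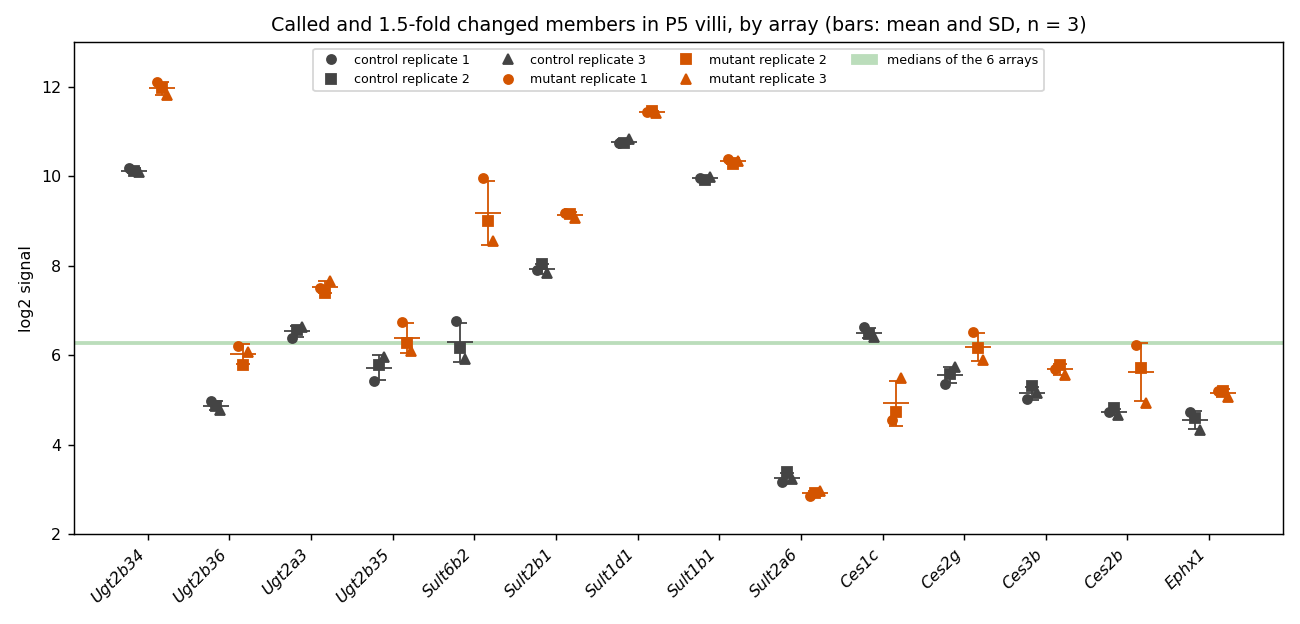
Log2 signal (y axis) of the 12 called genes and of the uncalled *Ugt2b35* and *Ces2b* (x axis) on the 3 control and 3 mutant arrays, each point 1 array, with bars for the group mean and SD (n = 3). The groups are separated for all 14 genes, by the least for *Ces2g*, *Ces2b* and *Ugt2b35*.

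*Ephx1*, the microsomal epoxide hydrolase that detoxifies epoxides of aromatic compounds, read 4.73, 4.60 and 4.32 in control and 5.19, 5.21 and 5.06 in mutant villi. It was higher by 0.60 ± 0.11, or 1.52-fold (adjusted p = 0.0094), the groups did not overlap, and the call held without any single array, as did those of *Ces3b*, *Sult1b1* and *Sult2b1*. *Ephx2*, the soluble enzyme that hydrolyses epoxides of fatty acids, had the highest signal of the 46 probe sets. It read 11.89, 11.90 and 11.92 in control and 12.01, 12.01 and 11.87 in mutant villi, a change of 0.06 ± 0.074 (adjusted p = 0.646). *Ephx3* and *Ephx4* differed by -0.02 and 0.00 and were not called.

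Conjugates and drugs are pumped out of the cell by ATP-driven exporters. Of the 10 exporter genes listed, 7 (70%) were higher and none lower, against 9.39% and 10.1% of all genes. The median change was 0.85, and the list was chosen with earlier results of these data known. *Abcb1a*, the P-glycoprotein gene, differed most and read 9.56, 9.35 and 9.46 in control and 12.45, 12.07 and 12.09 in mutant villi. *Abcc1* changed by 1.14 ± 0.13 (adjusted p = 0.00097). *Abcc2*, the exporter of conjugates on the apical membrane, read 11.86, 11.75 and 11.73 in control and 12.73, 12.52 and 12.81 in mutant villi, a change of 0.91 ± 0.094 (adjusted p = 0.00068). *Abcc3*, its basolateral counterpart, read 7.08, 7.25 and 7.06 in control and 8.72, 8.49 and 7.45 in mutant villi, a change of 1.09 ± 0.29 (adjusted p = 0.037). The *Abcc3* call was kept among the fits without 1 array only when mutant replicate 3 was left out, with a change of 1.48 (adjusted p = 0.000365). *Abcg2*, a further apical exporter of sulfate conjugates, differed by -0.06 and was not called.

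**Figure D5:**
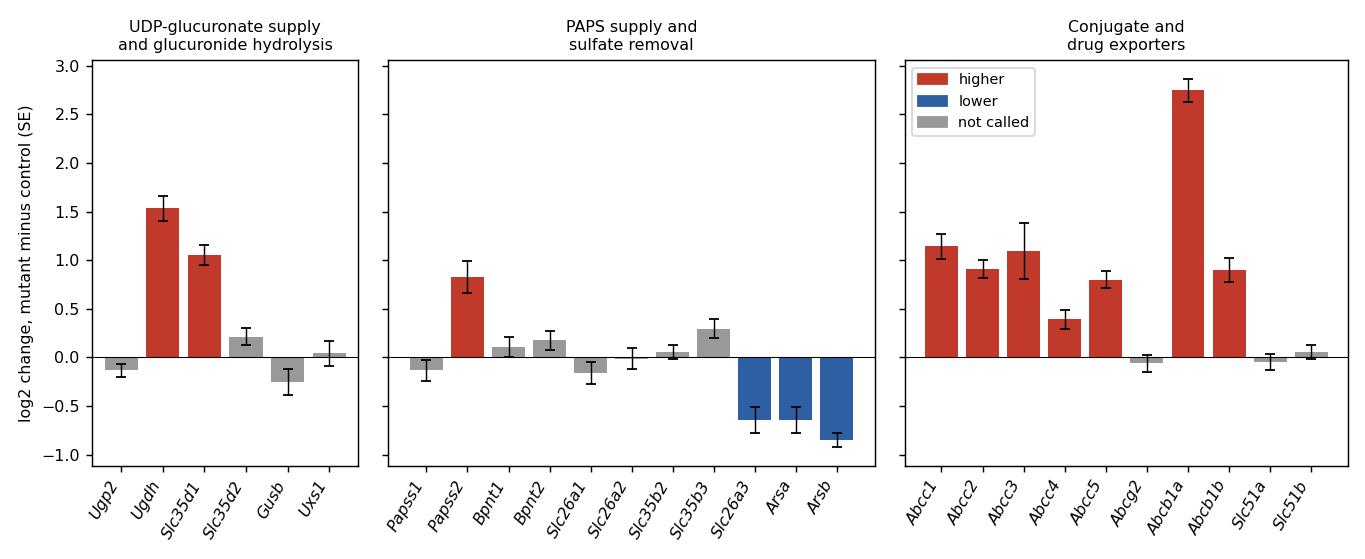
Change between mutant and control villi (y axis, log2, with error bars of 1 SE) for genes of UDP-glucuronate supply, PAPS supply and export (x axis). *Ugdh*, *Slc35d1*, *Papss2* and 7 of 10 exporters lie above 0 as called genes, while *Papss1* and *Abcg2* do not.

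Enzymes of other conjugation and hydrolysis reactions had no higher call. Of 14 measured, 0 were higher by limma, against 9.39% of all genes, and 1 (*Nat2*) was higher at an unadjusted p below 0.05. Lower were 5 (35.7%), against 10.1% of all genes, and the median change was -0.08. *Bche*, the butyrylcholinesterase, read 8.86, 8.82 and 8.84 in control and 7.91, 7.95 and 7.85 in mutant villi, a decrease of 0.94 ± 0.069 (adjusted p = 0.00015). *Pon3*, a lactonase, fell by 0.79 ± 0.082 (adjusted p = 0.00069). *Glyat*, the glycine acyltransferase, fell by 0.66 (adjusted p = 0.0233) and *Nat8*, an acetyltransferase, by 0.57 (adjusted p = 0.0196). The calls of *Bche* and *Pon3* held without any single array, while that of *Glyat* held in 2 and that of *Nat8* in 3 of the 6 such fits, and without control replicate 3 the list had 2 lower calls.

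Of 16 measured regulators of these enzyme families, 1 (6.25%) was higher and 3 (18.8%) were lower, against 9.39% and 10.1% of all genes, with a median change of -0.07. *Ahr* read 8.03, 7.95 and 8.02 in control and 8.51, 8.49 and 8.39 in mutant villi, a change of 0.46 ± 0.073 (adjusted p = 0.0043). *Ahr* kept its call without any single array. *Rxra*, the partner of many nuclear receptors, fell by 0.44 (adjusted p = 0.0202), *Cdx2* by 0.40 (adjusted p = 0.0206) and *Gata4* by 0.34 (adjusted p = 0.0169). Without control replicate 2 none of these 3 decreases was called, and over the 6 fits without 1 array *Rxra* and *Cdx2* were each called in 2 and *Gata4* in 5. *Nfe2l2*, which encodes NRF2, differed by -0.02, and *Nr1i2* and *Nr1i3*, which encode the xenobiotic receptors PXR and CAR, by 0.09 and -0.18.

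Reference targets of NRF2, a regulator of the response to oxidants, were higher in 7 of 9 cases and lower in none. The higher share was 77.8%, against 9.39% of all genes, and the median change was 1.72. This list was chosen with earlier results of these data known. Not called were *Hmox1*, at 2.61 (limma adjusted p = 0.0646), and *Gclm*, at 0.36 (limma adjusted p = 0.108). *Gclc*, the catalytic subunit of the enzyme that begins glutathione synthesis, read 9.19, 8.58 and 8.70 in control and 12.81, 12.10 and 11.51 in mutant villi, a change of 3.32 ± 0.31 (adjusted p = 0.0004). *Nqo1*, a quinone reductase, changed by 2.66 (adjusted p = 0.00021), the cystine carrier *Slc7a11* by 2.46 (adjusted p = 0.009) and the carbonyl reductase *Cbr3* by 1.72 (adjusted p = 0.0066). Of the 7 targets of AHR listed, *Nfe2l2* among them, 2 (28.6%) were higher and none lower, with a median change of 0.19. They were *Nqo1*, which stands in both lists, and *Cyp1b1*, which changed by 0.93 (adjusted p = 0.0222) and lost the call without control replicate 2, mutant replicate 2 or mutant replicate 3. *Cyp1a1*, the cytochrome most used as a readout of AHR, was not called (adjusted p = 0.528). It read 4.44, 4.60 and 4.57 in control and 4.40, 4.58 and 4.33 in mutant villi. Both group means of *Cyp1a1*, and of *Cyp1b1*, lay below the array medians, and signal over background was not tested there.

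The risen members did not all read highest on the same mutant array. Of the 10, mutant replicate 1 gave the highest mutant value for 6, mutant replicate 2 for 3 and mutant replicate 3 for 1. Mutant replicate 3 gave the lowest mutant value for 7 of them. Replicates of a group have no order, so this describes only which sample read high. The median SD of the 46 genes was 0.112 in control and 0.116 in mutant villi, against 0.099 and 0.099 for all genes.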

How the data were processed

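Villi of 3 control and 3 mutant replicates were profiled at P5 on 1 array each. The authors deposited log2 signals with 2 decimals. How they corrected background, summarised probes and normalized arrays was not found in the sources used here, so signal over background could not be computed and the number of arrays limits the precision. Of 30177 probe sets, 21789 had 1 gene symbol in the platform annotation, 1621 had several and 6767 were not listed. Current symbols, looked up in RefSeq by Entrez ID for 21698 probe sets, changed 0 members.

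All 6 arrays were compared with limma 3.58.1 (lmFit and eBayes, R 4.3.3) on the deposited values, and p-values were adjusted over all probe sets by Benjamini and Hochberg. The code was tested on simulated data. Alternatives were the equal-variance test of Student and that of Welch, a replicate block, trend and robust eBayes, array weights, median centring, quantile normalization, dim probe sets left out, an offset of 32 on the linear scale, single arrays left out, control replicates 2 and 3 averaged or left out, the probe set with the lowest mean of each gene, a change of at least 2-fold and updated symbols. Named are all called members, uncalled members at least 1.5-fold apart, the member of each family with the highest mean, the shared Ugt1a probe set, up to 4 called genes of each pathway list with the largest change, and *Trpm7*. Other genes are named beside these for contrast, and those were chosen after their values were seen. Members and lists were chosen with earlier results of these data known. Promoters are from RefSeq (GRCm38.p6). Python 3.11.15 was used for tables (pandas 2.3.3) and plots (matplotlib 3.10.9).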

Additional observations from a re-analysis of the deposited data

How the results depend on the processing

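No called member changed direction under any alternative run. When a change of at least 2-fold was asked as well, *Sult6b2*, *Ugt2b34*, *Sult2b1*, *Ugt2b36* and *Ces1c* remained. Of the 12 called members, *Sult1d1* alone was called in every other setting, and *Sult2b1*, *Ugt2b34*, *Ugt2a3* and *Ugt2b36* lost the call by Welch's test only among the other settings in which they were tested. *Ugt2b35* was called with array weights, with trend and robust eBayes and without mutant replicate 3. The members higher numbered 9 to 12 without single arrays, 1 by Welch's test, 6 with dim probe sets left out, where the other called members were not tested, 6 with control replicate 1 alone and 4 when a change of at least 2-fold was asked as well. The members lower numbered 1 to 2 without single arrays, 0 by the tests of Student and Welch, with dim probe sets left out and with control replicate 1 alone, and 1 with the offset, with control replicates 2 and 3 averaged and with the 2-fold change. At an unadjusted p below 0.05, 18 members passed limma's test in either direction. Over all probe sets, 2427 were higher and 2661 lower. The higher count was 1561 to 2037 without single arrays, 1116 by Student's test, 89 by Welch's test and 974 with control replicate 1 alone, and the lower count was 1688 to 2348, 1334, 131 and 759. Median centring moved the share of calls that were higher from 47.7% to 36.6%, left all 12 called members called and added *Sult2a8* as lower.

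Whether the replicate numbers pair the samples was not given, and the main fit took them as unpaired. Deviations of same-numbered samples correlated at 0.17, 0.04 and 0.12, and those of differently numbered samples at -0.16 to 0.09. With the replicate number as a block, 10 members were higher and 2 lower, *Ces2g* losing its call and *Ces2b* gaining one, and the shared Ugt1a change stayed 0.07. The shared Ugt1a probe set was called under none of the alternatives. The deposited values hold no measure of background, so signal over background was not tested for members with low signal, and 3 arrays a group limit the precision.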

Other observations

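Probe sets that the platform annotation used here does not list carry the symbols *Ces2c* and *Ces2d-ps* in the study's own table of all probe sets, and only these names were taken from it. They belong to the carboxylesterase cluster of chromosome 8, next to *Ces2b* and *Ces2e*, and were not counted among the 46 genes. The probe set named *Ces2c* read 5.97, 6.13 and 6.42 in control and 9.21, 9.11 and 7.54 in mutant villi, a change of 2.45 ± 0.40 (SE), or 5.45-fold (adjusted p = 0.0052 by limma). The probe set named *Ces2d-ps*, a pseudogene, read 8.32, 8.46 and 8.28 in control and 10.76, 10.65 and 9.35 in mutant villi, a change of 1.90 ± 0.33, or 3.73-fold (adjusted p = 0.0068 by limma). In both, mutant replicate 3 read lowest of the mutant arrays, as it did for *Ces2b* and *Ces2g*, while *Ces2e* between them on the chromosome differed by -0.01. Cross-reaction between probe sets of these close relatives was not tested.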
